A study of Oryctolagus cuniculus with 3 samples.

Results

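Messenger RNA of 6 enzymes of serine and related amino acid synthesis was compared between rabbit (Oryctolagus cuniculus) embryos that had been slow-frozen and embryos that had been vitrified. The enzymes are PHGDH, PSAT1, SHMT2, PCK2, ALDH18A1 and BCAT1. They were chosen by name with the array ratios reported here already known, so their ratios are given as a description and no p-value is attached to them. All probes of these genes in the deposited value table were taken, which gave 12 probes of the 22839 non-control probes, and 6 of the 6145 genes to which a symbol could be given.

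Morulae were taken from inseminated does on day 3 of development, cryopreserved by 1 of the 2 methods, moved into recipient does and collected again on day 6, that is 3 days after transfer. In the frozen group the morulae had been slow-frozen by a procedure that the labels do not describe. In the vitrified group they had been passed through dimethyl sulphoxide and ethylene glycol, plunged into liquid nitrogen in straws and warmed into sucrose. Both groups therefore carried a cryopreservation, a thawing or warming and a transfer, and embryos that were never cryopreserved were not analysed here. The labels name no strain and do not say how many embryos were pooled for an RNA sample. Each of 3 Agilent rabbit arrays with 2 colours held frozen embryos in one channel and vitrified embryos in the other, so n is 3 pairs, and the labels call them biological replicates. Frozen embryos were labelled with Cy5 on replicates 1 and 3 and with Cy3 on replicate 2.

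PHGDH, phosphoglycerate dehydrogenase, takes 3-phosphoglycerate out of glycolysis as the entry step of serine synthesis. PSAT1, phosphoserine aminotransferase, carries out the step after it, and PSPH then frees serine. SHMT2, the mitochondrial serine hydroxymethyltransferase, splits serine into glycine and a one-carbon unit for folate, which feeds the synthesis of purines and thymidylate in dividing cells. PCK2 is the mitochondrial phosphoenolpyruvate carboxykinase, ALDH18A1 makes the proline and ornithine precursor from glutamate, and BCAT1 is the cytosolic transaminase of the branched-chain amino acids. In mammalian cells several of these genes are known targets of ATF4, the transcription factor of the response to amino acid shortage.

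The array probes that carry the results are 60 bases long. The PHGDH probe stands for the lowest ratios, the 4 overlapping PSAT1 probes show which measurements of that gene share sequence, and the ALDH18A1 probe is the third gene that read low on every array. Sequences are those of the array design, 5′ to 3′. Capitals mark the 56 bases that the 4 PSAT1 probes have in common with the unnamed probe A_04_P072596.
PHGDH, A_04_P078937: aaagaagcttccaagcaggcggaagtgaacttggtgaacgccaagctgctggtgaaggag
PSAT1, A_04_P072592: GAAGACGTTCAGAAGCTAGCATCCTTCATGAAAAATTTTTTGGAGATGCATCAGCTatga
PSAT1, A_04_P072593: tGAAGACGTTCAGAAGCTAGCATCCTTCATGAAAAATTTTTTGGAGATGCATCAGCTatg
PSAT1, A_04_P072594: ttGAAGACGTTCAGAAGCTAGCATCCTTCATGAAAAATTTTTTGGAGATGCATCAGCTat
PSAT1, A_04_P072595: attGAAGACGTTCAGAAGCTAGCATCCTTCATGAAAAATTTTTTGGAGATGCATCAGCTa
ALDH18A1, A_04_P069062: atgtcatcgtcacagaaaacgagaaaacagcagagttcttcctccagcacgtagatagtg

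The array design places the PHGDH probe at chr13:44695059-44695118 on the minus strand, and the 4 overlapping PSAT1 probes between bases 64727049 and 64727111 of chromosome 1 on the plus strand. The genome build of these coordinates is not named in the files or labels. The design gives base 1141 of the PSAT1 transcript as the start of all 4, although they are offset from each other. The other 2 PSAT1 probes start at bases 1994 and 2098 of the same transcript and do not overlap them. The ALDH18A1 probe spans 1331 bases of chromosome 18, and the BCAT1 probe spans 2564 bases of chromosome 8. One of the 2 PCK2 probes, at base 1328 of its transcript, spans 670 bases of chromosome 17. Each of these 3 spans is longer than the probe, so the probe sequence joins separate stretches of the genome, as exons do in a spliced transcript. The SHMT2 probe starts at base 1437 of its transcript and has no chromosome position in the design.

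A log2 ratio here is frozen over vitrified, so a value below 0 means less signal in frozen embryos. Over all non-control probes the median log2 ratio was -0.015, 0.021 and 0.017 on replicates 1, 2 and 3. The ratios of replicate 1 did not run along with the others. Across probes, Pearson's r was -0.36 between replicates 1 and 2, -0.01 between 1 and 3 and 0.48 between 2 and 3. The direction of the deposited column of replicate 2 is not known. For the 10 spike-in probes of the value table, r was 0.9927 between replicates 1 and 3, and -0.9959 and -0.9978 between replicate 2 and replicates 1 and 3. That is how the probes would read if each spike-in mix went with its dye and the column had already been turned to frozen over vitrified. They would read the same if the mixes had been exchanged along with the samples and the column left as red over green. The spike-in probes alone do not tell these readings apart. A mean with the sign of replicate 2 turned is therefore given for each gene as well. No probe passed limma's test of the ratio against 0 at an adjusted p of 0.05 (0 of 22839, 0.0%), and 1020 probes (4.47%) had an unadjusted p below 0.05. Without replicate 1, limma called 796 probes, 243 higher and 553 lower in frozen embryos.

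PHGDH had the lowest mean ratio of the 6145 named genes in the deposited values, while 96 genes had a lower mean with the sign of replicate 2 turned. Its log2 ratio was -1.69, -2.01 and -2.05 on replicates 1, 2 and 3. All 3 arrays read it lower in frozen embryos, and the mean of -1.92 ± 0.20 (SD, n = 3), or 3.78-fold lower, was larger than the spread between arrays. In RNA of whole embryos, fewer cells of a type and less RNA per cell cannot be told apart. Of the 22839 probes, 11, 16 and 25 had a lower ratio on replicates 1, 2 and 3. The processed signal, which the scanner software corrects for background and dye, was 56 in frozen against 181 in vitrified embryos on replicate 1. It was 61 in frozen against 251 in vitrified embryos on replicate 3. Signals are given for 2 arrays, since a scanner file of replicate 2 was not analysed here.

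The size of the PHGDH difference depended on the background correction and normalization, which were changed together here. The raw spot mean was 159 in frozen embryos, over a local background of 53, against 205 over 48 in vitrified embryos on replicate 1. On replicate 3 it was 152 over 49 in frozen embryos, against 340 over 46 in vitrified embryos. When the raw signals were corrected with normexp at an offset of 50 and normalized by loess instead, the log2 ratio of PHGDH was -0.16 on replicate 1 and -1.22 on replicate 3, with a mean of -0.69. Without the offset, a setting chosen after these values were seen, it was -0.17 and -1.57. The ratio on replicate 1 was therefore far below 0 with the scanner software's own background and dye correction, and near 0 with normexp and loess. The mean of the deposited values was -0.58 with the sign of replicate 2 turned.

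PSAT1 was measured by 6 probes, and all of them read lower in frozen embryos on every array. Its probe with the highest mean signal, at base 2098, gave -1.01, -1.93 and -2.12 on replicates 1, 2 and 3. The mean was -1.68 ± 0.60 (SD, n = 3), or 3.21-fold lower, and -0.40 with the sign of replicate 2 turned. Replicate 1 lay closer to 0 than the other 2 arrays at each of the 6 probes. The processed signal of the probe at base 2098 was 1112 in frozen against 2232 in vitrified embryos on replicate 1, and 673 in frozen against 2919 in vitrified embryos on replicate 3. Before the scanner software's background and dye correction, the raw spot mean on replicate 1 was 1896 in frozen and 1710 in vitrified embryos, the opposite direction. On replicate 3 the raw means were 1042 in frozen and 3107 in vitrified embryos and already ran the same way. The other PSAT1 probes were not reversed on replicate 1, as with raw means of 1522 in frozen and 1678 in vitrified embryos at base 1994. Raw means of SHMT2, ALDH18A1, PCK2 and BCAT1 were higher in frozen embryos on replicate 1. Raw Cy5 and Cy3 means are not corrected for dye and are not on a common scale. The direction of a raw mean is therefore not read as a difference between the embryos. With normexp and loess the mean of the PSAT1 probe at base 2098 over replicates 1 and 3 was -1.32, made of -0.69 and -1.94.

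The 6 PSAT1 probes differed little from each other beside the spread between arrays. Their log2 ratios ran from -1.38 to -1.01 on replicate 1, from -2.06 to -1.78 on replicate 2 and from -2.40 to -2.12 on replicate 3. The probe means ran from -1.90 to -1.68. The 4 overlapping probes share at least 56 of 60 bases and are close to repeats of 1 measurement, while the other 2 lie elsewhere on the transcript. The mean of these 2 minus the mean of the 4 was 0.14, -0.00022 and 0.047 on replicates 1, 2 and 3. The processed signals of the 4 overlapping probes were 98 to 121 in frozen against 240 to 261 in vitrified embryos on replicate 1. On replicate 3 they were 97 to 103 in frozen against 477 to 524 in vitrified embryos. At base 1994 the signal was 813 in frozen against 1925 in vitrified embryos on replicate 1, and 621 in frozen against 3283 in vitrified embryos on replicate 3. In each probe the frozen channel was the lower one in processed signal on both arrays.

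**Figure D1:**
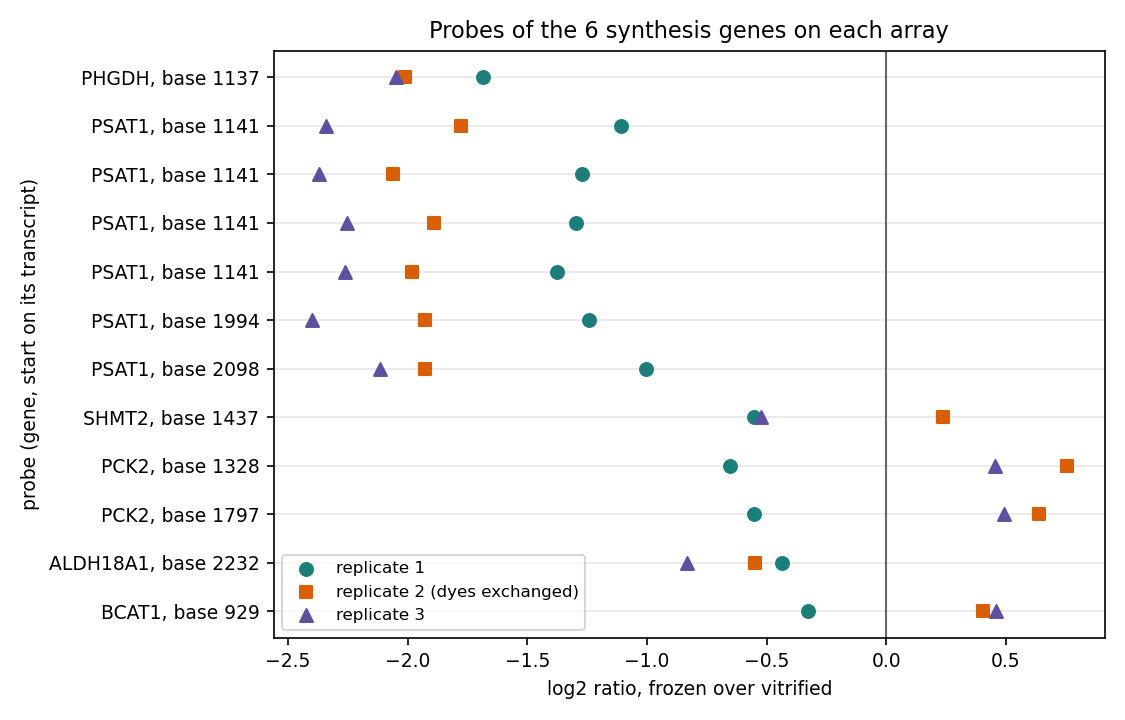
Log2 ratio, frozen over vitrified, of each of the 12 probes of the 6 genes, 1 row per probe and 1 symbol per array. The PHGDH probe and all 6 PSAT1 probes lie at or below -1.01 on every array, the ALDH18A1 probe lies below 0 on every array, and the PCK2 and BCAT1 probes lie left of 0 on replicate 1 and right of it on replicates 2 and 3.

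SHMT2, which uses the serine made by these enzymes, gave -0.55 on replicate 1, 0.24 on replicate 2 and -0.52 on replicate 3. The arrays disagreed in direction, and the mean of -0.28 ± 0.45 (SD, n = 3) was smaller than the spread. Turning the sign of replicate 2 gave a mean of -0.44. The processed signal was 1243 in frozen against 1821 in vitrified embryos on replicate 1, and 1412 in frozen against 2027 in vitrified embryos on replicate 3. The raw spot mean was higher in frozen embryos on replicate 1, at 2361 against 1613, and lower on replicate 3, at 2371 against 2687. The low ratio on both scanner arrays and the high one on replicate 2 also coincide with the dye, since frozen embryos were in Cy5 on replicates 1 and 3 and in Cy3 on replicate 2. With a term for the dye orientation, the SHMT2 mean was -0.15, and those of PHGDH and PSAT1 were -1.94 and -1.75.

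ALDH18A1 was the third member that read lower in frozen embryos on all 3 arrays. Its log2 ratio was -0.44, -0.55 and -0.83 on replicates 1, 2 and 3, a mean of -0.61 ± 0.21 (SD, n = 3) or 1.52-fold lower. Turning the sign of replicate 2 gave a mean of -0.24. The processed signal was 477 in frozen against 646 in vitrified embryos on replicate 1, and 503 in frozen against 897 in vitrified embryos on replicate 3. The raw spot mean was higher in frozen embryos on replicate 1, at 836 against 558, and lower on replicate 3, at 804 against 1037. With normexp and loess the ratio was -0.13 on replicate 1 and -0.68 on replicate 3.

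PCK2 and BCAT1 had no common direction. The PCK2 probe with the higher mean signal, at base 1797, gave -0.55, 0.64 and 0.49, a mean of 0.19 ± 0.65 (SD, n = 3). The PCK2 probe at base 1328 gave -0.65, 0.76 and 0.46, so that both probes of the gene read alike on each array. The processed signal at base 1797 was 18904 in frozen against 27694 in vitrified embryos on replicate 1, and 32573 in frozen against 23173 in vitrified embryos on replicate 3. At base 1328 it was 3054 in frozen against 4803 in vitrified embryos on replicate 1, and 7192 in frozen against 5242 in vitrified embryos on replicate 3. BCAT1 gave -0.33, 0.40 and 0.46 with a mean of 0.18 ± 0.44 (SD, n = 3). Its processed signal was 4275 in frozen against 5357 in vitrified embryos on replicate 1, and 4273 in frozen against 3108 in vitrified embryos on replicate 3. The frozen channel of these genes was thus the lower one in processed signal on replicate 1 and the higher one on replicate 3. With the sign of replicate 2 turned, the means were -0.23 for PCK2 and -0.09 for BCAT1, so neither direction held. The pattern of replicate 1 below 0 and the other 2 above was common on these arrays, with 4968 of all probes (21.8%) and 1576 of all genes (25.6%).

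**Figure D2:**
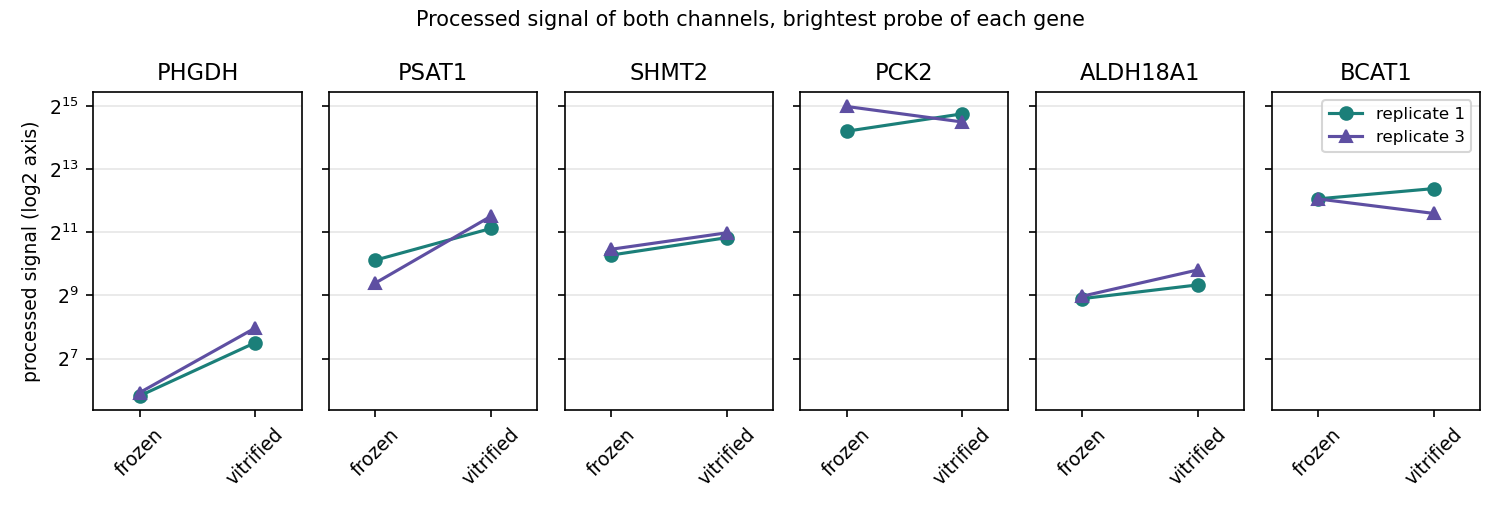
Processed signal of the frozen and the vitrified channel on a log2 axis, for the probe of each gene with the highest mean signal, with 1 line per array (replicates 1 and 3). The lines of PHGDH, PSAT1, SHMT2 and ALDH18A1 run upward to the vitrified channel on both arrays, and those of PCK2 and BCAT1 run upward on replicate 1 and downward on replicate 3.

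Of the 12 probes, 8 were below 0 on all 3 arrays, namely the PHGDH probe, the 6 PSAT1 probes and the ALDH18A1 probe, and 0 were above 0 on all 3. The same held for 2480 of all probes below 0 (10.9%) and 2668 above 0 (11.7%). With the sign of replicate 2 turned, 1 of the 12 probes, that of SHMT2, was below 0 on all 3 arrays, against 3010 of all probes (13.2%). The loss of the 8 probes was fixed in advance, since turning the sign puts replicate 2 above 0 for each of them. These shares are given for scale only, since the members were chosen from these ratios. By gene, 3 of 6 were below 0 on every array, against 710 of 6145 named genes (11.6%), and with the sign of replicate 2 turned 1 of 6, against 949 (15.4%). All 6 genes were below 0 on replicate 1, 3 on replicate 2 and 4 on replicate 3. The median of the 6 gene means was -0.44, and it was -0.55, -0.16 and -0.68 on replicates 1, 2 and 3. Over all named genes the median of the means was -0.01. Below -1 on all 3 arrays there were 10 probes (0.0438%), and 7 of them belonged to PHGDH and PSAT1. Another of the 10 carries no symbol but shares the sequence of the overlapping PSAT1 probes, and the remaining 2 belong to KDELR3 and QPCT. After the sign of replicate 2 was turned, 0 probes were below -1 on all 3 arrays (0.0%).

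**Figure D3:**
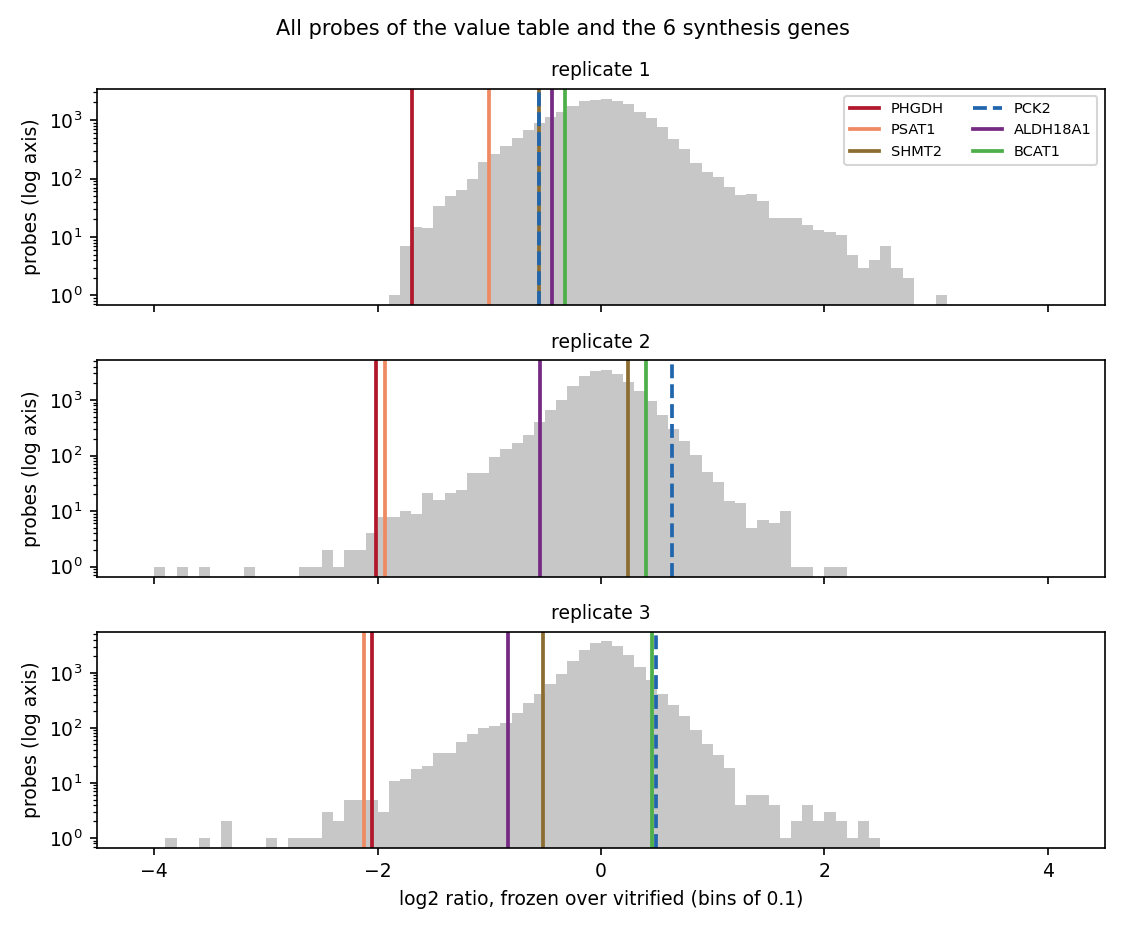
Number of non-control probes (log axis) in bins of 0.1 of the log2 ratio, frozen over vitrified, 1 panel per array, with vertical lines at the 6 genes. The PHGDH line lies in the lower tail on all 3 arrays, at -1.69, -2.01 and -2.05, the PSAT1 line lies further in on replicate 1 (-1.01) than on replicates 2 and 3, and the lines of SHMT2 and PCK2 fall together on replicate 1 at -0.55.

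The array pattern of PHGDH was compared with those of the other 6144 named genes, each by its probe with the highest mean signal, as the Euclidean distance between their log2 ratios over the 3 arrays. PSAT1 was nearest to PHGDH and PHGDH nearest to PSAT1, at a distance of 0.69. After it came TFPI, CHAC1, FGF2 and ITGA1 for PHGDH, at 1.31, 1.35, 1.36 and 1.53. For PSAT1 the next were TFPI, FGF2, ITGA1 and SLC3A1, at 0.90, 0.93, 1.07 and 1.15. TFPI, an inhibitor of the coagulation pathway, gave -0.69, -1.42 and -1.45 on replicates 1, 2 and 3. FGF2, a fibroblast growth factor, gave -0.73, -1.04 and -2.11. SLC3A1, a subunit of an amino acid carrier, gave -0.02 on replicate 1 and -2.28 and -2.61 on replicates 2 and 3, so its likeness to PSAT1 rests on replicates 2 and 3. The mean log2 processed signal over replicates 1 and 3 was 6.80 for PHGDH, 10.54 for PSAT1, 13.16 for TFPI and 7.49 for SLC3A1. CHAC1, FGF2 and ITGA1 were dimmer than PHGDH, at 5.74, 5.77 and 6.26. How far the ratios of FGF2 and ITGA1 depend on the background correction was not tested. A distance over 3 arrays is a description of these arrays. PHGDH and PSAT1 were chosen with these ratios known, and both lie in the low tail, where few genes lie. Their nearness is therefore no independent support for a shared pattern.

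Genes around the members were described from 9 lists. A symbol was found for a probe of 48 of the 85 listed genes, and the other names, among them PSPH and ASNS, were not analysed here. No gene of the 9 lists passed limma's test (adjusted p, threshold 0.05). Of the 48 genes, 10 were below 0 on all 3 arrays (20.8%) and 5 above 0 (10.4%), against 11.6% and 10.7% of all named genes. With the sign of replicate 2 turned, 10 genes were below 0 on all 3 arrays and 2 were above 0, against 15.4% and 11.1% of all named genes. No gene can be in both sets of 10, since turning the sign moves replicate 2 to the other side of 0. Common signs named for genes of these lists hold for the column as deposited and for the probe with the highest mean signal.

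The enzymes next to SHMT2 had means near 0, from arrays that disagreed in direction. None of the 5 measured genes of serine and glycine conversion and the glycine cleavage system had the same sign on all 3 arrays, and their median was 0.08. GLDC, the decarboxylase of glycine cleavage, averaged 0.16 ± 0.31, AMT 0.09 ± 0.62, GCSH 0.08 ± 0.61 and the serine racemase SRR -0.05 ± 0.26. SHMT1, the cytosolic counterpart of SHMT2, gave 0.70, 0.01 and -0.69. Of 10 measured folate one-carbon genes, MTFMT was below 0 on all 3 arrays and MTR and SLC25A32 were above 0, with a median of -0.03. The other probe of MTFMT and the other probe of MTR had mixed signs. MTFMT, the mitochondrial methionyl-tRNA formyltransferase, averaged -0.27 ± 0.13 and the thymidylate synthase TYMS -0.19 ± 0.26. The mitochondrial folate carrier SLC25A32 averaged 0.18 ± 0.08 and ALDH1L1 -0.15 ± 0.36. Each of these errors is an SD over 3 arrays. These means were small beside those of PHGDH and PSAT1, though no test compared the lists.

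Around ALDH18A1, OAT, the ornithine aminotransferase that shares its product, gave -0.78, -0.30 and -0.53 on replicates 1, 2 and 3. All 5 OAT probes had means between -0.54 and -0.52, and the mean of the probe with the highest signal was -0.54 ± 0.24 (SD, n = 3). None of the 4 genes of aspartate, glutamate and alanine exchange had a common sign. There, GLUL averaged -0.21, GOT1 -0.15 and GLUD1 -0.03. Next to BCAT1, 1 of 5 measured genes of branched-chain breakdown, DBT, was above 0 on all 3 arrays, with a mean of 0.13, although 1 of its 3 probes read -0.04 on replicate 1. IVD averaged -0.44 ± 0.57, BCKDHB -0.18 and MCCC2 -0.10. OAT was therefore the only gene of these 3 lists that was below 0 on every array.

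Next to PCK2, 6 of 9 listed genes of phosphoenolpyruvate, pyruvate and 3-phosphoglycerate were measured. FBP2, a fructose bisphosphatase, gave 0.78, 1.15 and 1.15, with a mean of 1.03 ± 0.22 (SD, n = 3), and was above 0 on all 3 arrays. Its mean was 0.26 with the sign of replicate 2 turned. GAPDH was below 0 on all 3 with a mean of -0.30, while PKM averaged -0.34 and PGAM1 -0.25 with mixed signs. In methionine metabolism, CBS, which joins serine to homocysteine, gave -1.44, -0.61 and -0.25. Its mean of -0.76 ± 0.61 (SD, n = 3) rested most on replicate 1. MAT2A, AHCY and MAT2B averaged -0.34, -0.29 and -0.07 with mixed signs.

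Among 4 measured amino acid carriers, SLC1A5 and SLC3A2 were below 0 on all 3 arrays. SLC1A5, a carrier of glutamine and other neutral amino acids, gave -0.37, -0.79 and -0.94, with a mean of -0.70 ± 0.30 (SD, n = 3) and of -0.17 with the sign of replicate 2 turned. The other, dimmer probe of SLC1A5 gave -1.18, -0.49 and -0.88 with a mean of -0.85, and was lowest on replicate 1. SLC3A2 averaged -0.26, SLC7A5 -0.25 and SLC38A2 0.02. Of 8 measured genes of the amino acid and eIF2α response, 4 were below 0 on all 3 arrays and EIF2S1, at 0.08, was above 0. CHAC1, which degrades glutathione, gave -1.28, -0.80 and -1.62 with a mean of -1.23 ± 0.42 (SD, n = 3). STC2, a secreted glycoprotein, averaged -1.02 ± 0.53, the stress-responsive mTOR inhibitor DDIT4 -0.94 ± 0.59 and the transcription factor ATF3 -0.94 ± 0.57. With the sign of replicate 2 turned, these 4 means were -0.70, -0.72, -0.76 and -0.71. Like PHGDH, these 4 genes depended on the background correction and normalization on replicate 1. With normexp (offset 50) and loess, applied to them after the values of PHGDH were seen, their ratios were -0.07, -0.14, -0.12 and -0.05 on replicate 1 and -0.89, -1.02, -0.78 and -0.75 on replicate 3. Under the same setting SLC1A5 gave -0.33 and -0.97, OAT -0.83 and -0.59, CBS -0.95 and -0.28, and FBP2 0.69 and 1.15 on replicates 1 and 3. The kinases EIF2AK3 and EIF2AK4 averaged 0.05 and 0.07. ATF4 itself was not analysed here.

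**Figure D4:**
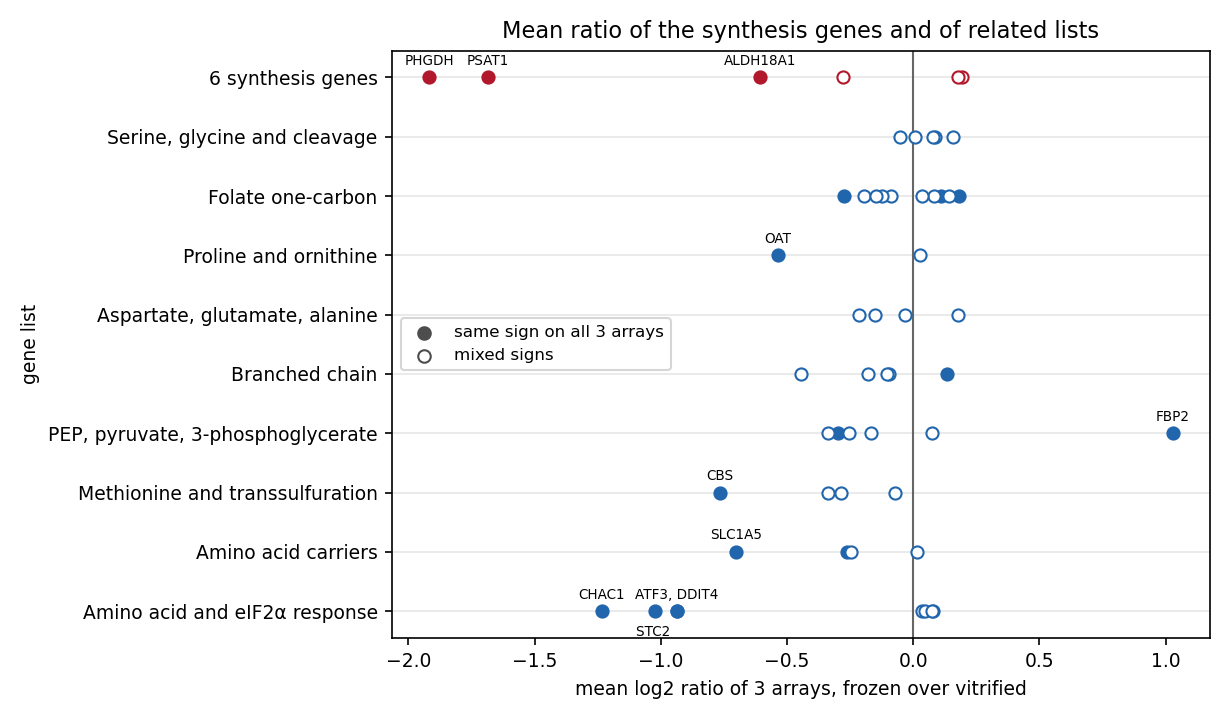
Mean log2 ratio over 3 arrays, frozen over vitrified, of the 6 genes (top row, red) and of the 48 measured genes of 9 related lists (blue), 1 point per gene, filled where the sign is the same on all 3 arrays. PHGDH and PSAT1 lie at -1.92 and -1.68, the genes of serine and glycine conversion lie between -0.05 and 0.16, and CHAC1, STC2, DDIT4 and ATF3 lie between -1.23 and -0.94.

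Markers of the embryo's own lineages were measured, among them POU5F1, GATA3 and KRT8, and no marker passed limma's test. They were flagged as well above background on replicates 1 and 3, but so was every non-control probe of the value table. That flag therefore does not set these markers apart. POU5F1, a marker of the epiblast, gave -0.75, -0.52 and -1.62 on replicates 1, 2 and 3, and LIN28A averaged -0.12. The summed processed signal of these 2 of 5 epiblast markers was 5607 in frozen against 9255 in vitrified embryos on replicate 1, and 3406 in frozen against 9958 in vitrified embryos on replicate 3. Of 8 hypoblast markers, 3 were measured (APOA1, APOB and RBP4), with median ratios of 0.51, -1.38 and -1.88. Their summed signal was 1311 in frozen against 939 in vitrified embryos on replicate 1, and 903 in frozen against 3519 in vitrified embryos on replicate 3. APOA1 gave 0.51, -1.38 and -2.20, RBP4 gave 0.66, -1.98 and -1.76, and APOB gave -0.27, -0.81 and -1.88 on replicates 1, 2 and 3. APOB was thus below 0 on every array, and the other 2 were above 0 on replicate 1. Of 8 trophoblast markers, 4 were measured (GATA3, GATA2, KRT8 and TFAP2C), with median ratios of -0.17, 0.32 and 0.34. Their summed signal was 13516 in frozen against 21031 in vitrified embryos on replicate 1 and 20821 in frozen against 20846 in vitrified embryos on replicate 3. KRT8, with a mean log2 processed signal of 13.97 against 10.62 for GATA3, weighs most in these sums. GATA3 gave -0.04, 0.56 and 0.76, and GATA2 gave 0.17, 0.26 and 0.33 on replicates 1, 2 and 3. TFAP2C gave -0.31, 0.24 and 0.36, and KRT8 gave -0.74, 0.37 and -0.10. The part of cell composition in the ratios of the 6 genes was not tested.

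Markers from outside the embryo were measured as well. Their mean log2 processed signal over replicates 1 and 3 was 8.29 for SCGB1A1, 5.39 for HOXA11, 7.42 for S100A9 and 5.81 for CD68. The mean ratios of the 10 SCGB1A1 probes ran from -1.05 to -0.33, and the sums use only its probe with the highest mean signal. Of 7 markers of the uterus, SCGB1A1 and HOXA11 were measured, and their summed signal was 601 in frozen against 943 in vitrified embryos on replicate 1 and 175 in frozen against 196 in vitrified embryos on replicate 3. Of 6 blood markers, S100A9 and CD68 summed to 211 in frozen against 162 in vitrified embryos on replicate 1 and to 303 in frozen against 260 in vitrified embryos on replicate 3. The remaining names of these lists were not analysed here.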

How the data were processed

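Each of 3 Agilent arrays compared the total RNA of frozen and vitrified embryos in 2 channels. The submitters' processing notes name Agilent Feature Extraction 10.10.1.1 as the scanner software. The deposited value table holds log2 ratios whose scale, centring and direction are unstated. For replicates 1 and 3 they equalled the log2 ratio of processed red over green intensity to within 3e-06, which is frozen over vitrified, without further centring. Whether the column of replicate 2 had been turned stays unknown. Per the file headers, the scanner files of replicates 1 and 3 give raw and processed spot intensity, a log10 ratio, the error of that ratio (a score here) and its p-value. The log10 ratio and the p-value were not used as tests, and the error score was only tabulated. The table has 22865 rows, 26 of them controls, and the other 22839 are 52.4% of the array's probes. On replicates 1 and 3 each of these was flagged as well above background for Cy3 and Cy5, and 0 were saturated. How the authors filtered the table is not stated in the files or labels.

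Probes were named from the symbol in the scanner file (1669 probes), a transcript (427), a gene identifier (10588) or a synonym (15) in the RefSeq table of rabbit genes, and 10140 had no symbol. A gene was represented by its probe with the highest mean log2 processed signal. In R 4.3.3, limma 3.58.1 tested each probe's 3 ratios against 0 through lmFit and eBayes, and p-values were adjusted by Benjamini and Hochberg's method over all 22839 probes and a threshold of 0.05. The script was tested on simulated data. Joins and counts used pandas 2.3.3 under Python 3.11.15. The number of arrays limits the precision, and each member probe had 1 spot per array. Each array is its own pair, and no slide block was fitted. The text names the 6 genes with every probe, from each list the up to 4 genes with the largest absolute mean, and the 5 nearest patterns of PHGDH and PSAT1. SHMT1, EIF2AK3, EIF2AK4 and the other genes with 1 sign on all 3 arrays were named after their values were seen. Some genes that this rule names are not reported here. Members and lists were chosen with earlier results of these data known. Alternatives were the sign of replicate 2, leaving out each array, median centring, normexp with loess, other probe filters, another probe per gene, a dye covariate and an intensity trend. The table has 0 columns of sample values that were not used.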

Additional observations from a re-analysis of the deposited data

How the results depend on the processing

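With limma, 0 probes were called with all 3 arrays, and leaving out 1 array gave 0 to 796. The 796 came without replicate 1 (243 higher, 553 lower), where 3720 had an unadjusted p below 0.05. The other alternatives gave 0 calls, with 351 (without replicate 3) to 1064 (sign of replicate 2 turned) probes at an unadjusted p below 0.05 in the table, and 10460 of all 43603 array probes on replicates 1 and 3. The count of member probes below 0 on every array was 8, 8 to 9 with 1 array left out, and 1 with the sign of replicate 2 turned. None of the 8 could be kept with that sign turned, since replicate 2 then lies above 0. The mean of PCK2 was 0.19 and turned to -0.23 with the sign of replicate 2 turned, to -0.040 with normexp and loess, to -0.049 with normexp without an offset, and to -0.030 from the processed signals of replicates 1 and 3, with -0.030 to 0.56 when 1 array was left out. BCAT1 turned to -0.090 with the sign of replicate 2 turned. The cause was not tested. PHGDH, PSAT1, SHMT2 and ALDH18A1 kept a negative mean in all settings run. Their means nearest to 0 were -0.58 for PHGDH, -0.40 for PSAT1 and -0.24 for ALDH18A1, each with the sign of replicate 2 turned, and -0.14 for SHMT2 without 1 array. With that sign turned, PHGDH, PSAT1 and ALDH18A1 lay above 0 on replicate 2 and below 0 on replicates 1 and 3. Their negative means under that sign therefore do not show a common direction of the arrays. PHGDH averaged -0.69 with normexp and loess and -0.87 without the offset. The median of the 6 gene means was -0.59 to -0.32 with 1 array left out. PHGDH has no value under the filter that keeps probes at or above the median signal. The test over 3 arrays is already paired, since each array holds a frozen and a vitrified sample, and no slide block was fitted.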

Other observations

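A pair of probes outside the naming rule shares a transcript or sequence with the members. The unnamed probe A_04_P072596, which contains the 56 bases in capitals in the overlapping PSAT1 probes, gave -1.14, -1.94 and -2.16 on replicates 1, 2 and 3, with a mean of -1.75 ± 0.54 (SD, n = 3). Its processed signal was 105 in frozen against 232 in vitrified embryos on replicate 1, and 115 in frozen against 517 in vitrified embryos on replicate 3. The unnamed probe A_04_P090827 lies on the transcript of the BCAT1 probe, at base 1023, and gave -0.12, 0.32 and 0.51, with a mean of 0.24 ± 0.32 (SD, n = 3). The sign of each was that of the PSAT1 or BCAT1 member probes on every array.

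Outside the listed genes, KDELR3, a KDEL receptor of the secretory pathway, gave -1.51, -1.01 and -1.18 on replicates 1, 2 and 3. QPCT, glutaminyl-peptide cyclotransferase, gave -1.20, -1.33 and -1.06. Both were named after their values were seen, because they were the only named genes beside PHGDH and PSAT1 with a probe below -1 on all 3 arrays in the deposited columns. With the sign of replicate 2 turned, their means were -0.56 and -0.31 and no probe was below -1 on all 3 arrays.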
